A study of Mus musculus with 18 samples.

Results

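Toll-like receptors are the sensors with which macrophages recognize microbial lipids, proteins and nucleic acids, and their transcripts were followed in synovial macrophages of mice with and without a systemic challenge with immune complexes (ICs). The 10 genes described are 8 receptors, *Tlr1*, *Tlr2*, *Tlr3*, *Tlr4*, *Tlr7*, *Tlr8*, *Tlr9* and *Tlr13*, with the coreceptor gene *Cd14* and the adaptor gene *Myd88*. They were chosen by name from the 24421 gene symbols in the count files, and all 10 were among the 10550 genes that passed the filter on low counts. The 3 subsets were sorted from collagenase-digested synovium of wild-type C57BL/6 mice: LYVE1+CX3CR1+ cells (negative for MHCII and Ly6C), MHCII+CD11c- cells and MHCII+CD11c+ cells. Each subset was taken from untreated mice and from mice culled 8 h after an intravenous injection of ICs made of ovalbumin and rabbit antibody to it, which gave 6 groups of 3 libraries and 18 libraries in all. Cells from 6 legs, that is from 3 mice, went into each library, so replicates are pools and not single animals. The study used mice of 8 to 20 weeks. The labels name no injection for the control groups, called untreated here, and all 6 groups are wild type, with no transgene or deletion.

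Toll-like receptors at the cell surface, such as TLR1, TLR2 and TLR4, bind lipopeptides and lipopolysaccharide. CD14 is a surface protein that hands lipopolysaccharide and other ligands to them. Receptors in endosomes (TLR3, TLR7, TLR8, TLR9 and TLR13) bind nucleic acids that reach the endosome, including nucleic acids taken up within ICs, and MyD88 relays the signal of all of these receptors except TLR3 to kinases that activate NF-kB and interferon regulatory factors.

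The libraries held 245903 to 2172358 counts, and 2 of them were shallow: replicates 1 and 2 of IC-treated MHCII+CD11c- cells had 381217 and 245903 counts, where 3 counts correspond to 7.84 and 11.3 CPM (the count scaled to the library's total with TMM factors, the unit of all levels given). A list of 5 genes that mark LYVE1+ macrophages (*Lyve1*, *Cx3cr1*, *Timd4*, *Folr2* and *Vsig4*) summed to 5293 to 5762 CPM in untreated and 6821 to 7095 CPM in IC-treated LYVE1+CX3CR1+ libraries. The sums were 1708 to 1924 and 1506 to 3729 CPM in MHCII+CD11c- libraries and 803 to 897 and 1422 to 1782 CPM in MHCII+CD11c+ libraries, so these markers were also read in both MHCII+ subsets. *Itgax*, which encodes CD11c, was at 240.0 to 383 CPM in the MHCII+CD11c+ libraries and at 0 to 8.16 CPM in the LYVE1+CX3CR1+ libraries, but lay at 2.33 to 13.3 CPM in untreated and at 31.0 to 70.6 CPM in IC-treated MHCII+CD11c- libraries, in which the 4 class II genes also summed to 6789 to 13312 CPM against 19105 to 20175 CPM without treatment. Markers of other cells were present in the MHCII+ libraries. A list of 4 B cell genes summed to 178 to 274 CPM in untreated MHCII+CD11c-, 59.2 to 86.3 CPM in untreated MHCII+CD11c+ and 0 to 1.62 CPM in untreated LYVE1+CX3CR1+ cells. *Xist* was read in every library and the Y-linked genes *Ddx3y*, *Uty* and *Eif2s3y* had 0 counts in all 18, which is given here because *Tlr7*, *Tlr8* and *Tlr13* lie on the X chromosome. The paper states that mice of both sexes were used in its experiments, whereas these counts gave no sign of male cells in any library.

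In GENCODE vM21 coordinates (GRCm38, the assembly of mm10), the surface receptor genes lie at chr5:64924679-64933563 (*Tlr1*), chr3:83836272-83841767 (*Tlr2*) and chr4:66827584-66930284 (*Tlr4*), and *Cd14* lies at chr18:36725067-36726798. The endosomal receptor genes lie at chr8:45395665-45411080 (*Tlr3*), chrX:167304929-167330558 (*Tlr7*), chrX:167242696-167264329 (*Tlr8*), chr9:106222598-106226883 (*Tlr9*) and chrX:106143204-106160493 (*Tlr13*), and *Myd88* lies at chr9:119335934-119341411. *Tlr7* and *Tlr8* are neighbours on the X chromosome. *Tlr1* and *Tlr6* are close relatives, and how reads that match both were counted is not given in the sources used here, so the counts of *Tlr1* are uncertain in that respect.

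Per kilobase of exon, *Cd14* was the highest of the 10 genes and *Tlr3* the lowest. Averaged over the 18 libraries, the level was 280.0 CPM per kilobase for *Cd14*, 74.8 for *Tlr2* and 37.7 for *Myd88*. *Tlr13*, *Tlr7*, *Tlr8* and *Tlr9* followed at 23.0, 21.7, 21.0 and 15.1 CPM per kilobase, *Tlr4* was at 12.2, and *Tlr1* and *Tlr3* were at 3.61 and 2.33. The spread between groups was wide for some of the genes and narrow for others. The highest group mean was 18.4 times the lowest for *Tlr9*, 6.35 times for *Tlr13* and 5.61 times for *Tlr1*, and 1.65 times for *Tlr4* and 1.61 times for *Cd14*. These ratios are descriptions of group means, with no test.

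**Figure D1:**
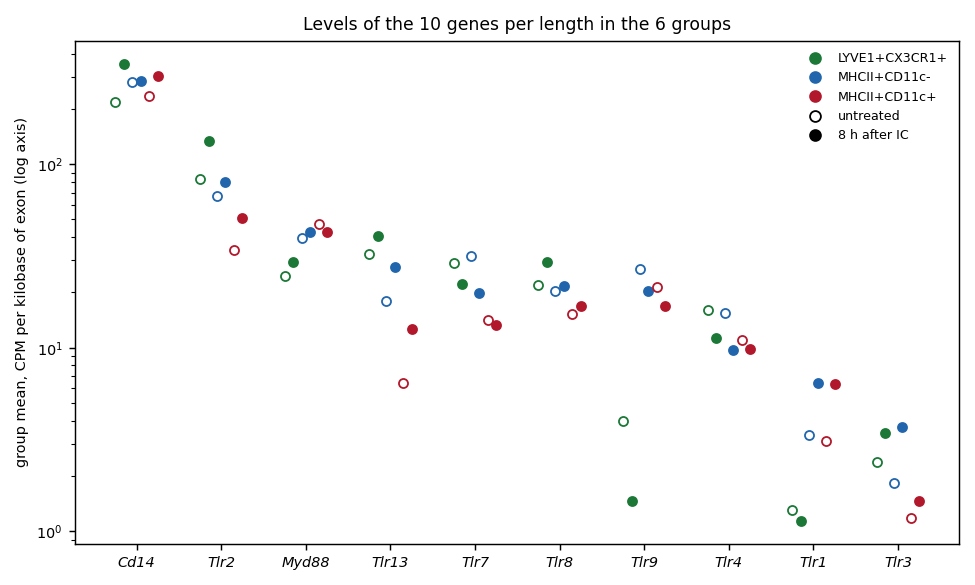
Group means of the 10 genes in CPM per kilobase of exon (log axis), with 6 points per gene, colored by subset, open for untreated and filled for IC-treated cells (n = 3 libraries each). *Cd14* lies between 219.6 and 354, and the *Tlr9* points of LYVE1+CX3CR1+ cells, at 3.99 and 1.45, lie apart from those of both MHCII+ subsets, at 16.8 to 26.8.

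The first question was how the subsets differed without treatment. In untreated mice, edgeR's quasi-likelihood test called 2 of the 10 genes between LYVE1+CX3CR1+ and MHCII+CD11c- cells (1 higher and 1 lower in LYVE1+CX3CR1+ cells), beside 11.4% of all genes tested. It called 5 between LYVE1+CX3CR1+ and MHCII+CD11c+ cells (3 higher, 2 lower), beside 21.8%, and 3 between MHCII+CD11c+ and MHCII+CD11c- cells (all lower in MHCII+CD11c+ cells), beside 3.49%. In IC-treated mice it called 3 between LYVE1+CX3CR1+ and MHCII+CD11c- cells (1 higher, 2 lower), beside 9.77% of all genes, 6 between LYVE1+CX3CR1+ and MHCII+CD11c+ cells (4 higher, 2 lower), beside 19.7%, and 1 between MHCII+CD11c+ and MHCII+CD11c- cells, beside 2.84%. The median log2 fold change of the 10 genes was between -0.45 and 0.53 in these 6 comparisons, and that of all genes between -0.04 and 0.00. Each group enters 2 of the comparisons, so their calls are not independent of each other. In bulk RNA, fewer cells of a type and less RNA per cell cannot be told apart.

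**Figure D2:**
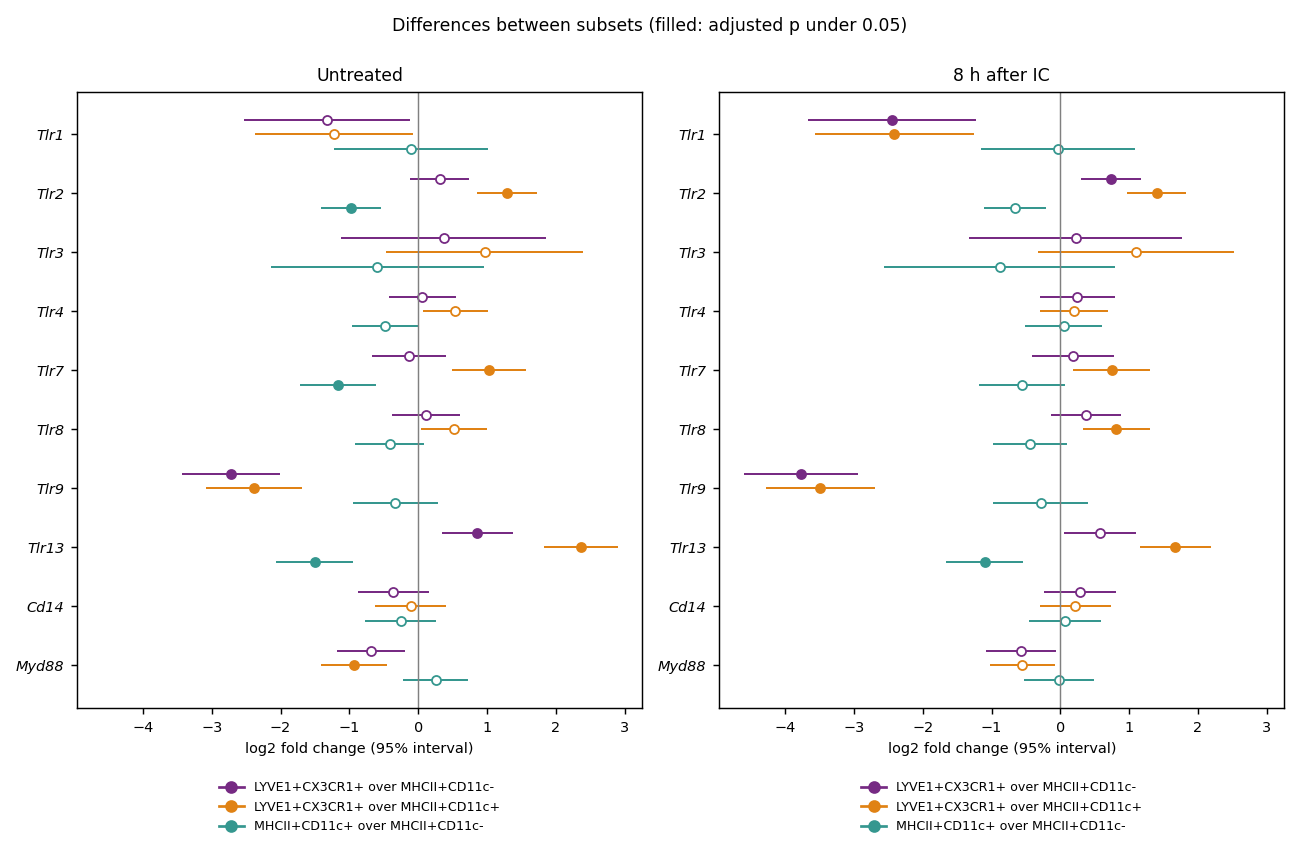
Log2 fold changes of the 10 genes between subsets, untreated (left) and 8 h after IC (right), with 95% intervals from edgeR's fit and filled points where the adjusted p was under 0.05. *Tlr9* lies between -3.77 and -2.39 for LYVE1+CX3CR1+ over either MHCII+ subset, and *Tlr13* lies on the opposite side at 0.57 to 2.36.

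*Tlr9*, the receptor for unmethylated CpG DNA, was the gene with the largest difference among the 10, and it was low in LYVE1+CX3CR1+ cells. In untreated LYVE1+CX3CR1+ cells the 3 libraries had 9.43, 14.4 and 17.8 CPM, from 14, 23 and 33 counts. Untreated MHCII+CD11c- cells had 86.0, 109 and 84.8 CPM and untreated MHCII+CD11c+ cells 73.0, 99.3 and 50.6 CPM. All libraries of both MHCII+ subsets lay above all LYVE1+CX3CR1+ libraries. The log2 fold change of LYVE1+CX3CR1+ over MHCII+CD11c- cells was -2.72 ± 0.34 (adjusted p = 3.14e-06), and over MHCII+CD11c+ cells -2.39 ± 0.33 (adjusted p = 4.4e-06). After IC, *Tlr9* was at 2.26, 4.74 and 8.16 CPM in LYVE1+CX3CR1+ cells (from 4, 9 and 17 counts), 99.4, 45.2 and 68.1 CPM in MHCII+CD11c- cells and 52.4, 55.1 and 67.6 CPM in MHCII+CD11c+ cells, again without overlap between LYVE1+CX3CR1+ and MHCII+ libraries. The differences were -3.77 ± 0.39 (adjusted p = 2.26e-07) and -3.49 ± 0.38 (adjusted p = 1.39e-07). All 4 of these calls held when any 1 library was left out. In this and all later comparisons the value after ± is a standard error, the p-values come from edgeR's quasi-likelihood test and they are adjusted over 10550 genes. The MHCII+ subsets overlapped each other in *Tlr9*, with a log2 fold change of MHCII+CD11c+ over MHCII+CD11c- cells of -0.33 ± 0.30 (adjusted p = 0.653) untreated and -0.29 ± 0.33 (adjusted p = 0.737) after IC. The 95% intervals of those differences, -0.94 to 0.28 and -0.96 to 0.39, include 0 and lie apart from the intervals of both differences to LYVE1+CX3CR1+ cells.

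B cells and plasmacytoid dendritic cells are known to express *Tlr9*, and their markers were counted beside it. All 4 B cell markers (*Cd79a*, *Cd79b*, *Ms4a1* and *Pax5*) were read in both MHCII+ subsets, whereas *Cd79b* and *Pax5* had 0 counts in all 6 LYVE1+CX3CR1+ libraries and the list summed to 0 to 1.62 CPM there without and 0 to 2.11 CPM with IC. The sums after IC were 209 to 297 CPM in MHCII+CD11c- and 61.7 to 86.5 CPM in MHCII+CD11c+ cells. Between the MHCII+ subsets the B cell sums did not overlap in either treatment, and *Tlr9* overlapped in both. The part of B cells in the *Tlr9* level of either MHCII+ subset was not tested. *Siglech*, a marker of plasmacytoid dendritic cells, was at 2.02 to 4.39 CPM in untreated LYVE1+CX3CR1+, 7.15 to 33.0 CPM in MHCII+CD11c- and 3.68 to 11.1 CPM in MHCII+CD11c+ cells. The list of 5 such markers (*Siglech*, *Ccr9*, *Bst2*, *Tcf4* and *Klk1*) ran the other way, at 218 to 248 CPM against 150.0 to 177 and 118 to 153 CPM. *Siglech* was a small part of that sum, which came mostly from the other listed genes and is not read as a level of these cells. The list of 6 dendritic cell markers summed to 3.23 to 6.74 CPM in untreated LYVE1+CX3CR1+, 102 to 149 CPM in MHCII+CD11c- and 238 to 429 CPM in MHCII+CD11c+ cells. Because the B cell sum separates LYVE1+CX3CR1+ cells from the other subsets completely, subset and B cell signal cannot be told apart in the comparisons with LYVE1+CX3CR1+ cells. With the log2 B cell sum as a covariate, a fit chosen after seeing the data, the log2 fold changes of *Tlr9* were -3.25 ± 1.93 and -2.80 ± 1.48 untreated and -4.33 ± 2.03 and -3.93 ± 1.61 after IC, none of them called, and only 2, 24, 1 and 11 of all genes were called in these comparisons.

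**Figure D3:**
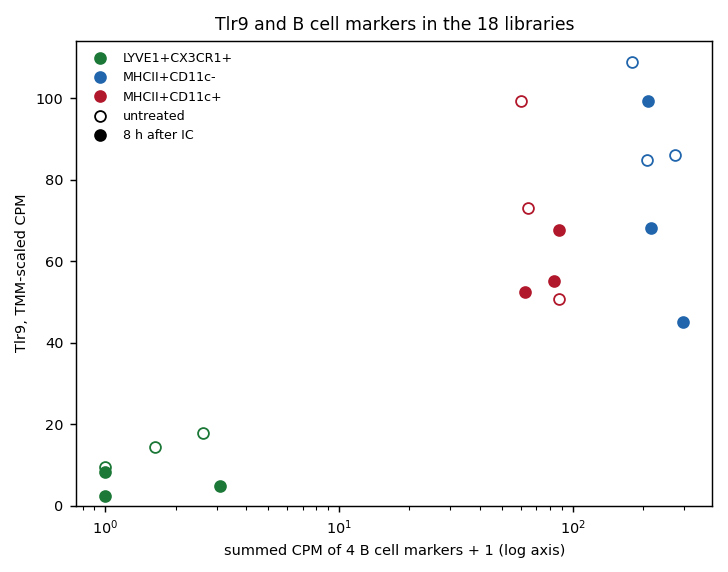
*Tlr9* (TMM-scaled CPM) against the summed CPM of 4 B cell markers plus 1 (log axis) in the 18 libraries, colored by subset, open for untreated and filled for IC-treated. The 6 LYVE1+CX3CR1+ libraries lie at a B cell sum of 0 to 2.11 CPM and *Tlr9* of 2.26 to 17.8 CPM. The MHCII+CD11c- and MHCII+CD11c+ libraries differ in the B cell sum and overlap in *Tlr9*, and the part of B cells in *Tlr9* was not tested.

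*Tlr13*, which encodes a mouse receptor for bacterial ribosomal RNA, ran the other way and stepped down across the subsets. Untreated LYVE1+CX3CR1+ cells had 132, 145 and 143 CPM, MHCII+CD11c- cells 58.1, 100.2 and 73.6 CPM and MHCII+CD11c+ cells 28.4, 37.5 and 16.9 CPM, and no library of one subset overlapped another subset. The log2 fold change was 2.36 ± 0.25 (adjusted p = 9.09e-08) for LYVE1+CX3CR1+ over MHCII+CD11c+ cells and -1.5 ± 0.26 (adjusted p = 0.00121) for MHCII+CD11c+ over MHCII+CD11c- cells, and both calls held when any 1 library was left out. The step from MHCII+CD11c- to LYVE1+CX3CR1+ cells was smaller, at 0.86 ± 0.24 (adjusted p = 0.0187), and this call was lost without replicate 1 or 3 of untreated MHCII+CD11c- cells and without replicate 2 or 3 of untreated LYVE1+CX3CR1+ cells, with log2 fold changes of 0.69 to 1.08 and adjusted p of 0.0106 to 0.108 over the 6 libraries left out.

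After IC the order was the same. *Tlr13* was at 167, 172 and 186 CPM in LYVE1+CX3CR1+, 78.4, 158 and 121 CPM in MHCII+CD11c- and 47.8, 55.1 and 59.7 CPM in MHCII+CD11c+ cells, again without overlap. LYVE1+CX3CR1+ cells were above MHCII+CD11c+ cells by 1.67 ± 0.24 (adjusted p = 1.22e-05), which held without any 1 library. MHCII+CD11c+ cells were below MHCII+CD11c- cells, at -1.10 ± 0.27 (adjusted p = 0.0203), a call that was lost without replicate 1 or 2 of MHCII+CD11c+ cells and without replicate 2 or 3 of MHCII+CD11c- cells (log2 fold changes of -1.31 to -0.91, adjusted p of 0.00801 to 0.0796 over the 6 libraries left out), with only the libraries compared, at -1.10 (adjusted p = 0.117), and with 1 surrogate variable, at -1.04 (adjusted p = 0.097). The difference between LYVE1+CX3CR1+ and MHCII+CD11c- cells, 0.57 ± 0.25 (adjusted p = 0.152), did not pass the threshold.

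*Tlr7* and *Tlr8*, the neighbouring genes of receptors for RNA, were both called between LYVE1+CX3CR1+ and MHCII+CD11c+ cells after IC, and *Tlr7* also in 2 comparisons without treatment. *Tlr7* was at 106, 125 and 122 CPM in untreated LYVE1+CX3CR1+, 81.4, 178 and 129 CPM in MHCII+CD11c- and 38.9, 82.2 and 52.6 CPM in MHCII+CD11c+ cells, so that the widest spread was within MHCII+CD11c- cells and only the LYVE1+CX3CR1+ and MHCII+CD11c+ libraries were apart. LYVE1+CX3CR1+ exceeded MHCII+CD11c+ cells by 1.03 ± 0.26 (adjusted p = 0.00361), and the call held when any 1 library was left out. MHCII+CD11c+ cells were lower than MHCII+CD11c- cells, at -1.17 ± 0.26 (adjusted p = 0.00946) although the libraries overlapped, and that call was lost without replicate 1 or 3 of MHCII+CD11c+ and without replicate 2 of MHCII+CD11c- cells (log2 fold changes of -1.5 to -0.87, adjusted p of 0.00146 to 0.104) and with 1 surrogate variable, at -1.01 (adjusted p = 0.0792). After IC, *Tlr7* was at 101, 83.8 and 87.9 CPM in LYVE1+CX3CR1+, 107, 71.5 and 66.1 CPM in MHCII+CD11c- and 52.4, 58.2 and 51.8 CPM in MHCII+CD11c+ cells. LYVE1+CX3CR1+ cells were above MHCII+CD11c+ cells without overlap, by 0.74 ± 0.27 (adjusted p = 0.0492), and this call was lost whichever of the 6 libraries was left out (adjusted p of 0.0745 to 0.149).

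*Tlr8* was at 68.7, 81.5 and 86.7 CPM in untreated LYVE1+CX3CR1+, 59.3, 78.2 and 81.7 CPM in MHCII+CD11c- and 47.8, 52.6 and 64.1 CPM in MHCII+CD11c+ cells. The LYVE1+CX3CR1+ libraries lay above the MHCII+CD11c+ libraries, but the log2 fold change of 0.52 ± 0.23 (adjusted p = 0.106) did not pass the threshold, except in a fit of only the libraries compared, at 0.53 (adjusted p = 0.0444). After IC it was at 121, 99.6 and 97 CPM in LYVE1+CX3CR1+ and 67.9, 60.6 and 53.6 CPM in MHCII+CD11c+ cells, a difference of 0.82 ± 0.23 (adjusted p = 0.0118) without overlap, which was lost without replicate 1 of LYVE1+CX3CR1+ cells or replicate 3 of MHCII+CD11c+ cells (adjusted p of 0.0188 to 0.0686 over the 6 libraries left out). IC-treated MHCII+CD11c- cells had 96.7, 41.4 and 94.1 CPM, with the lowest value, from 11 counts, in the shallowest library.

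*Tlr3*, the receptor for double-stranded RNA, had few counts and wide intervals. It had 0 to 46 counts per library, with 9, 9 and 0 counts in IC-treated MHCII+CD11c- cells and 1, 14 and 17 counts in IC-treated MHCII+CD11c+ cells. The group means ran from 6.18 ± 2.19 CPM in untreated MHCII+CD11c+ cells to 19.1 ± 17.4 CPM in IC-treated MHCII+CD11c- cells (SD, n = 3), and no comparison of all libraries passed the threshold. Without both shallow libraries, the 1 MHCII+CD11c- library left after IC, at 0 counts, was called against LYVE1+CX3CR1+ cells. The 95% intervals of the *Tlr3* differences between subsets were -1.10 to 1.85, -0.45 to 2.39 and -2.13 to 0.94 on the log2 scale without treatment, so a difference of the size seen for *Tlr7* was not detectable at this depth.

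**Figure D4:**
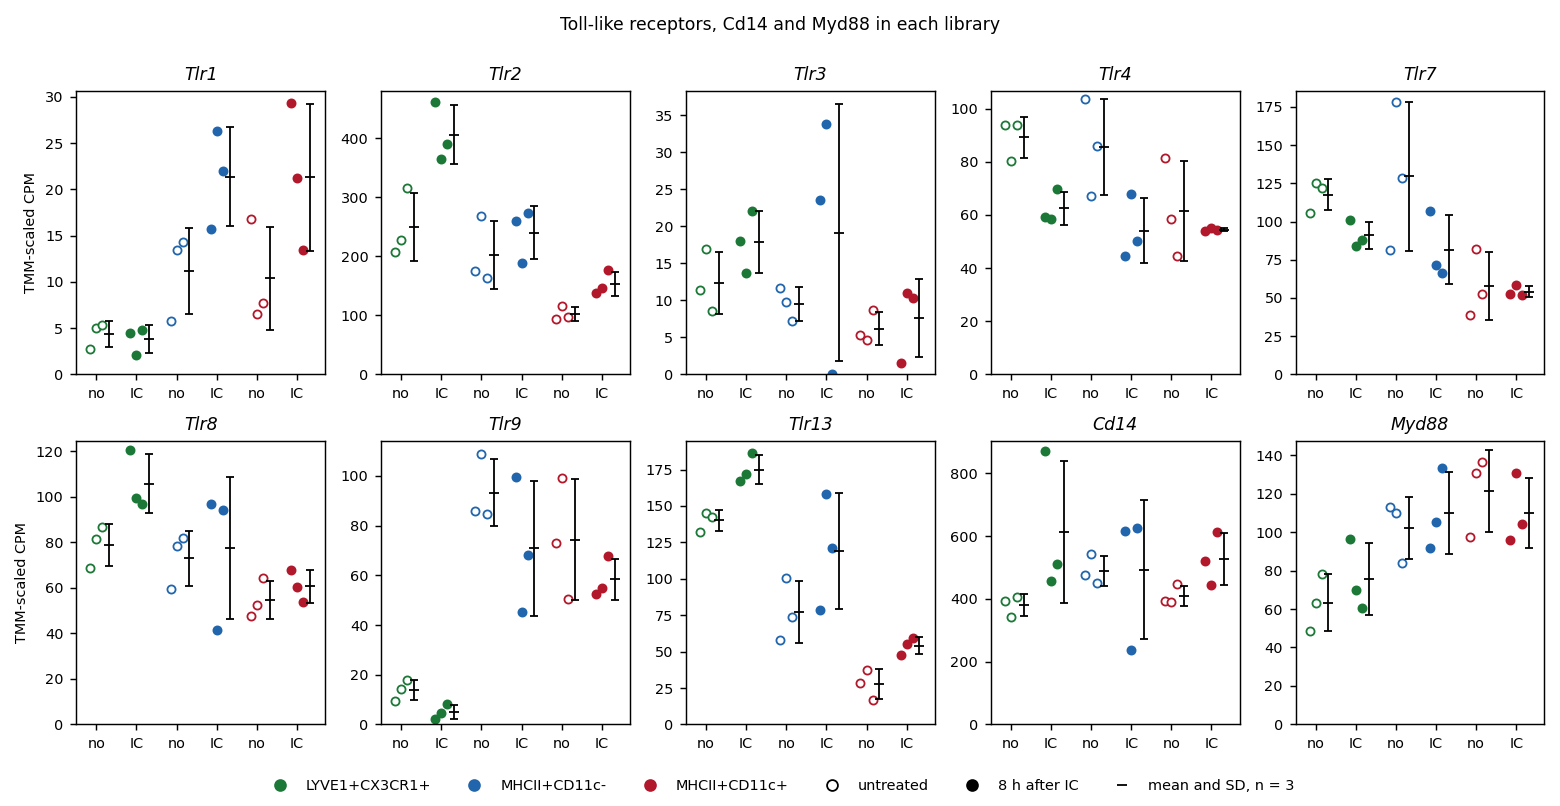
TMM-scaled CPM of the 10 genes in each of the 18 libraries (linear axes from 0), colored by subset, open for untreated ("no") and filled for IC-treated, with mean and SD beside each group of 3. *Tlr13* steps down from LYVE1+CX3CR1+ to MHCII+CD11c- to MHCII+CD11c+ cells, *Tlr2* is lowest in MHCII+CD11c+ cells within each treatment, *Tlr9* is low in LYVE1+CX3CR1+ cells, and *Cd14* overlaps between most groups.

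Among the surface receptors, *Tlr2*, the lipopeptide receptor, was lowest in MHCII+CD11c+ cells. Untreated LYVE1+CX3CR1+ cells had 207, 228 and 315 CPM, MHCII+CD11c- cells 176, 268 and 162 CPM and MHCII+CD11c+ cells 93.5, 116 and 97.4 CPM. The LYVE1+CX3CR1+ and MHCII+CD11c- libraries overlapped and both lay above all MHCII+CD11c+ libraries. LYVE1+CX3CR1+ exceeded MHCII+CD11c+ cells by 1.29 ± 0.20 (adjusted p = 2.75e-05), which held without any 1 library, and MHCII+CD11c+ were below MHCII+CD11c- cells, at -0.98 ± 0.21 (adjusted p = 0.00664), which was lost without replicate 2 of MHCII+CD11c- cells, at -0.72 (adjusted p = 0.0798). After IC the 3 subsets had 462, 365 and 391 CPM (LYVE1+CX3CR1+), 259, 188 and 273 CPM (MHCII+CD11c-) and 137, 146 and 176 CPM (MHCII+CD11c+), with no overlap between any 2 of them. LYVE1+CX3CR1+ cells were above MHCII+CD11c+ cells by 1.40 ± 0.20 (adjusted p = 1.1e-05), a call that held without any 1 library. They were above MHCII+CD11c- cells by 0.73 ± 0.21 (adjusted p = 0.0226), which was lost without replicate 1 of LYVE1+CX3CR1+ cells, at 0.63 (adjusted p = 0.105), and without the shallow replicate 2 of MHCII+CD11c- cells, at 0.60 (adjusted p = 0.0703). It was also lost with only the libraries compared, at 0.76 (adjusted p = 0.069), with 1 surrogate variable, at 0.43 (adjusted p = 0.54), and without both shallow libraries, at 0.57 (adjusted p = 0.256). The difference of MHCII+CD11c+ from MHCII+CD11c- cells after IC, -0.66 ± 0.21 (adjusted p = 0.096), was called only by DESeq2 and without replicate 2 of MHCII+CD11c- cells, at -0.79 (adjusted p = 0.0372).

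*Tlr1*, whose product pairs with TLR2, went the other way from *Tlr2*, on few reads. After IC it had 4.51, 2.11 and 4.80 CPM in LYVE1+CX3CR1+ cells from 8, 4 and 10 counts, 15.7, 26.4 and 22.0 CPM in MHCII+CD11c- cells from 6, 7 and 22 counts and 29.3, 21.2 and 13.4 CPM in MHCII+CD11c+ cells from 19, 27 and 22 counts. LYVE1+CX3CR1+ libraries lay below all others, with log2 fold changes of -2.44 ± 0.59 (adjusted p = 0.00719) against MHCII+CD11c- and -2.42 ± 0.55 (adjusted p = 0.00209) against MHCII+CD11c+ cells, and both calls held without any 1 library. The first was lost with 1 surrogate variable, at -2.21 (adjusted p = 0.123). Untreated, the values were 2.70, 5.01 and 5.38 CPM, 5.81, 13.4 and 14.3 CPM and 16.8, 6.57 and 7.72 CPM, LYVE1+CX3CR1+ libraries were again below the others, and the differences of -1.33 ± 0.58 (adjusted p = 0.159) and -1.22 ± 0.55 (adjusted p = 0.125) did not pass the threshold. Markers of B cells and neutrophils, which also express *Tlr1*, were low as well in LYVE1+CX3CR1+ cells: 5 neutrophil genes summed to 1.13 to 80.7 CPM after IC, against 970.1 to 2189 CPM in MHCII+CD11c- and 617 to 1477 CPM in MHCII+CD11c+ cells. The 5 monocyte genes summed to 21.4 to 46.4, 662 to 1288 and 684 to 801 CPM. Their part in the result was not tested beyond the fit with the B cell sum as a covariate.

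*Tlr4*, the lipopolysaccharide receptor, and *Cd14* passed the threshold in none of the 6 comparisons of subsets with all libraries. *Tlr4* was at 93.7, 80.2 and 93.7 CPM in untreated LYVE1+CX3CR1+, 103, 67.2 and 85.8 CPM in MHCII+CD11c- and 81.4, 58.5 and 44.4 CPM in MHCII+CD11c+ cells, with overlap throughout. The LYVE1+CX3CR1+ over MHCII+CD11c+ difference untreated was 0.54 ± 0.22 (adjusted p = 0.0906), and it was called without replicate 1 of MHCII+CD11c+ cells, at 0.80 (adjusted p = 0.0215). *Cd14* was at 394, 341 and 407 CPM in untreated LYVE1+CX3CR1+, 474, 542 and 449 CPM in MHCII+CD11c- and 392, 389 and 447 CPM in MHCII+CD11c+ cells. The MHCII+CD11c- libraries lay above the others, yet the differences were small, at -0.36 for LYVE1+CX3CR1+ and -0.25 for MHCII+CD11c+ over MHCII+CD11c- cells on the log2 scale (adjusted p = 0.418 and 0.684), with 95% intervals of -0.87 to 0.14 and -0.76 to 0.25.

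*Myd88* was lower in LYVE1+CX3CR1+ cells than in MHCII+CD11c+ cells without treatment. It was at 48.5, 63.3 and 78.1 CPM in LYVE1+CX3CR1+, 113, 110.0 and 83.8 CPM in MHCII+CD11c- and 97.2, 131 and 136 CPM in MHCII+CD11c+ cells, and the LYVE1+CX3CR1+ libraries lay below all others. The log2 fold change was -0.93 ± 0.22 (adjusted p = 0.00275) against MHCII+CD11c+ cells, a call that held without any 1 library, and -0.68 ± 0.23 (adjusted p = 0.0581) against MHCII+CD11c- cells, which did not pass the threshold. The latter was called by DESeq2's Wald test (adjusted p = 0.0378), with 1 surrogate variable, at -0.80 (adjusted p = 0.0455), and without replicate 3 of either group. After IC, *Myd88* was at 96.4, 70.1 and 60.5 CPM in LYVE1+CX3CR1+, 91.5, 105 and 133 CPM in MHCII+CD11c- and 95.6, 131 and 104 CPM in MHCII+CD11c+ cells, with overlap, and was not called, although LYVE1+CX3CR1+ against MHCII+CD11c+ cells was called without replicate 1 of LYVE1+CX3CR1+ cells, at -0.76 (adjusted p = 0.0374).

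*Tlr2*, *Tlr8* and *Tlr13* had the same order of the 6 group means: IC-treated LYVE1+CX3CR1+ cells first, then untreated LYVE1+CX3CR1+ cells, IC-treated and untreated MHCII+CD11c- cells, and IC-treated and untreated MHCII+CD11c+ cells. Between neighbours in this order, the libraries of *Tlr2* and *Tlr13* did not overlap at 2 of the 5 steps (the IC step within LYVE1+CX3CR1+ and the IC step within MHCII+CD11c+ cells), those of *Tlr8* at 1 (within LYVE1+CX3CR1+ cells), and the other neighbours overlapped. *Tlr9* began with untreated MHCII+CD11c- cells and ended with untreated and IC-treated LYVE1+CX3CR1+ cells, and its only separated neighbours were IC-treated MHCII+CD11c+ and untreated LYVE1+CX3CR1+ cells and the last pair. *Tlr7* ran from untreated MHCII+CD11c- and LYVE1+CX3CR1+ cells down to untreated and IC-treated MHCII+CD11c+ cells with 1 separated step, between untreated and IC-treated LYVE1+CX3CR1+ cells. *Tlr1* ran from IC-treated MHCII+CD11c- to IC-treated LYVE1+CX3CR1+ cells with 1 separated step, between untreated MHCII+CD11c+ and untreated LYVE1+CX3CR1+ cells, and *Cd14* from IC-treated to untreated LYVE1+CX3CR1+ cells, also with 1. *Tlr3*, *Tlr4* and *Myd88* had none. The share of all genes that separated at such steps is not given here, so these counts are not read as a result.

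The promoter windows of the 3 genes that share an order, and of *Tlr9*, which runs against them, are shown so that the sequences at their start sites can be compared. Each holds 250 bases before and 50 bases from the RefSeq start site (GRCm38.p6), read 5′ to 3′ on the gene's strand, and capitals mark matches on either strand to AGGAAG (a core of ETS family sites), TGANTCA (AP-1), GAAANNGAA (interferon regulatory factors) or GGGANTTTC (NF-kB). The windows are chr3:83841559-83841858 (minus strand), chrX:167264280-167264579 (minus strand), chrX:106143025-106143324 (plus strand) and chr9:106222348-106222647 (plus strand).
*Tlr2*: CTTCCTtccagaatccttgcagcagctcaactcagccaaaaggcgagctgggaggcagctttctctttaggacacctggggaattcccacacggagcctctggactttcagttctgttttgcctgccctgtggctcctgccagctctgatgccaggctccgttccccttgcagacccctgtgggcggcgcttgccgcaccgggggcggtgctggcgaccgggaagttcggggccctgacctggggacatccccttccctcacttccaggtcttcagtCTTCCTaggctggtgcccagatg
*Tlr8*: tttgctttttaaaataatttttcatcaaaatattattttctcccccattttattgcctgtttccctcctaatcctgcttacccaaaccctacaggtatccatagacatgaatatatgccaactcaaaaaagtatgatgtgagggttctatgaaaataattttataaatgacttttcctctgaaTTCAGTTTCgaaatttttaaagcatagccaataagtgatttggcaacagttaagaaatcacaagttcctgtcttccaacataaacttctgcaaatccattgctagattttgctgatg
*Tlr13*: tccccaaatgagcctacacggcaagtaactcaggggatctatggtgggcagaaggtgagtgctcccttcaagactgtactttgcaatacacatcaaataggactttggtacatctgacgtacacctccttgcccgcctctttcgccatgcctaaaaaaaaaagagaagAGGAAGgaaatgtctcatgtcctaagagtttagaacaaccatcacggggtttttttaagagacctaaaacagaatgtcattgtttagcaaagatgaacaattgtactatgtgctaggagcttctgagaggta
*Tlr9*: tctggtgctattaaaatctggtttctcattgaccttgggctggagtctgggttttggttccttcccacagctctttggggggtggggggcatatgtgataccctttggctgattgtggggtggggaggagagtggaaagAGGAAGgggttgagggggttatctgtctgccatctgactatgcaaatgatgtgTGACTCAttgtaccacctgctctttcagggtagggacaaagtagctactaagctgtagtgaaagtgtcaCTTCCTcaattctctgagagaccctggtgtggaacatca
Of 32851 such windows in the mouse, 35.4% hold AGGAAG, 7.81% TGANTCA, 8.56% GAAANNGAA and 1.11% GGGANTTTC. The *Tlr9* window holds AGGAAG from 111 to 106 bases before the start, its reverse complement from 12 to 17 bases after it, and TGANTCA from 58 to 52 bases before it. The *Tlr13* window holds AGGAAG from 82 to 77 bases before the start, the *Tlr2* window its reverse complement from 250 to 245 bases before and from 28 to 33 after the start, and the *Tlr8* window the reverse complement of GAAANNGAA from 67 to 59 bases before the start. None of these 4 motifs is shared by the 3 genes of like order and missing from *Tlr9*. Only these 4 letter patterns were searched, so stretches without capitals can hold other forms of such sites. A match describes letters in a window and not a bound site.

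The next question was whether the genes changed with IC challenge. None of the 10 passed the threshold with edgeR's quasi-likelihood test in LYVE1+CX3CR1+, MHCII+CD11c- or MHCII+CD11c+ cells, beside 0.464%, 1.06% and 0.673% of all genes. At an unadjusted p under 0.05 the counts were 4, 3 and 2 of 10, beside 919, 1544 and 1000 of all 10550 genes. DESeq2's Wald test called 2 in LYVE1+CX3CR1+ cells (*Tlr2* and *Tlr9*, with no adjusted p for *Tlr1* and *Tlr3*), 0 in MHCII+CD11c- cells and 1 in MHCII+CD11c+ cells (*Tlr13*).

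In LYVE1+CX3CR1+ cells, the libraries of 7 genes did not overlap between treatments, of which *Tlr2*, *Tlr9* and *Cd14* had the lowest p. The share of all genes tested that separated in this way is not given here. The count of 7 therefore has no background to be compared with and is not read as an effect of IC. None of the 7 passed the threshold with edgeR's test. *Tlr2* was at 207, 228 and 315 CPM without and 462, 365 and 391 CPM with IC, and the log2 fold change was 0.70 ± 0.20 (adjusted p = 0.153). *Tlr9* was at 9.43, 14.4 and 17.8 CPM without and 2.26, 4.74 and 8.16 CPM with IC (-1.42 ± 0.41, adjusted p = 0.166), a value that rests on 4 to 33 counts per library. *Cd14* was at 394, 341 and 407 CPM without and 872, 455 and 510.4 CPM with IC (0.69 ± 0.24, adjusted p = 0.305), with replicate 1 of the IC-treated cells far above the other 2. *Tlr4* lay lower after IC, at 59.2, 58.5 and 69.6 CPM against 93.7, 80.2 and 93.7 CPM (-0.51 ± 0.22, adjusted p = 0.476), and so did *Tlr7* (-0.37 ± 0.25, adjusted p = 0.761), while *Tlr8* and *Tlr13* lay higher (0.42 and 0.32, adjusted p = 0.627 and 0.782). With DESeq2 the adjusted p was 0.0258 for *Tlr2* and 0.0296 for *Tlr9*. In these libraries the 5 neutrophil genes summed to 0.627 to 8.61 CPM without and 1.13 to 80.7 CPM with IC, and 6 fibroblast genes to 30.1 to 645 and 16.4 to 125 CPM. Their part in these values was not tested.

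In MHCII+CD11c+ cells, *Tlr13* was the gene nearest to the threshold. It was at 28.4, 37.5 and 16.9 CPM without and 47.8, 55.1 and 59.7 CPM with IC, without overlap, a log2 fold change of 1.01 ± 0.27 (adjusted p = 0.0898) that DESeq2 called (adjusted p = 0.0222). *Tlr2* lay higher after IC as well, at 137, 146 and 176 CPM against 93.5, 116 and 97.4 CPM (0.59 ± 0.21, adjusted p = 0.261). The 5 neutrophil genes summed to 4.6 to 307 CPM without and 617 to 1477 CPM with IC in this subset. The 5 genes of the LYVE1+ list summed to 803 to 897 CPM without and 1422 to 1782 CPM with IC, also without overlap. The part of either list in these values was not tested. *Tlr9* overlapped between treatments (-0.33 ± 0.30, adjusted p = 0.84), as did *Cd14* (0.36 ± 0.24, adjusted p = 0.722) and *Myd88* (-0.13 ± 0.22, adjusted p = 0.937).

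In MHCII+CD11c- cells, *Tlr4*, *Tlr7* and *Tlr13* had an unadjusted p under 0.05. *Tlr4* was at 103, 67.2 and 85.8 CPM without and 44.5, 67.8 and 50.1 CPM with IC (-0.70 ± 0.26, adjusted p = 0.192). *Tlr7* was at 81.4, 178 and 129 CPM without and 107, 71.5 and 66.1 CPM with IC (-0.69 ± 0.28, adjusted p = 0.241), and *Tlr13* at 58.1, 100.2 and 73.6 and 78.4, 158 and 121 CPM (0.61 ± 0.26, adjusted p = 0.267). The treatments overlapped for all 3. Neutrophil genes summed to 336 to 745 CPM without and 970.1 to 2189 CPM with IC, 4 mast cell genes summed to 6.11 to 206 and 101 to 467 CPM, and the differences in *Itgax* and class II genes given above also fall between these groups. The 5 genes of the LYVE1+ list summed to 1708 to 1924 CPM (median 1887) without and 1506 to 3729 CPM (median 3119) with IC, with overlap. The part of these lists in the values was not tested. Without both shallow libraries, again 0 of the 10 genes were called.

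**Figure D5:**
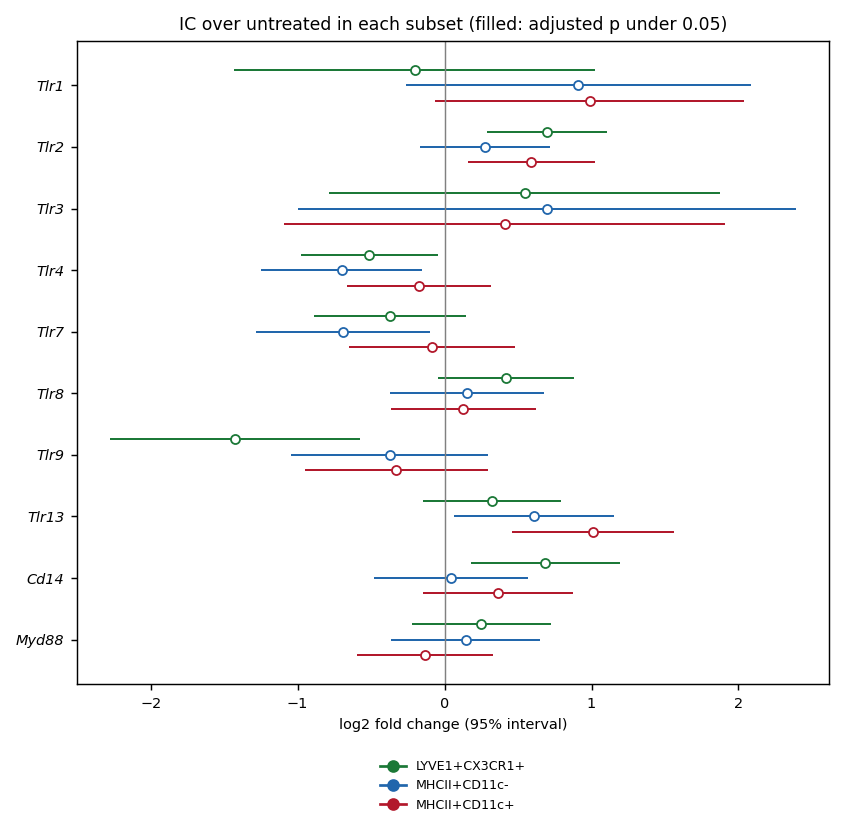
Log2 fold changes of the 10 genes with IC over untreated in each subset, with 95% intervals from edgeR's fit. All points are open, since none had an adjusted p under 0.05. Values run from -1.42 for *Tlr9* in LYVE1+CX3CR1+ cells to 1.01 for *Tlr13* in MHCII+CD11c+ cells, and the intervals of *Tlr1* and *Tlr3* are the widest.

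Whether the change with IC differed between subsets was tested as an interaction in the same fit. None of the 10 genes passed the threshold in the 3 comparisons of responses. The share of all genes called was 0% (LYVE1+CX3CR1+ against MHCII+CD11c- cells), 0.00948% (LYVE1+CX3CR1+ against MHCII+CD11c+ cells) and 0.00948% (MHCII+CD11c+ against MHCII+CD11c- cells). In the same order, 0, 1 and 0 of the 10 genes had an unadjusted p under 0.05, beside 688, 474 and 642 of all 10550 genes. DESeq2's Wald test called 0 in each as well, with no adjusted p for 4, 8 and 0 of the genes. The widest differences were those of *Tlr1* and *Tlr9*. The response of *Tlr9* in LYVE1+CX3CR1+ cells minus that in MHCII+CD11c+ cells was -1.10 ± 0.51 (adjusted p = 1), with a 95% interval of -2.14 to -0.05, and minus that in MHCII+CD11c- cells -1.05 ± 0.52 (adjusted p = 0.755). That of *Tlr13* in LYVE1+CX3CR1+ minus MHCII+CD11c+ cells was -0.69 ± 0.35 (adjusted p = 1).

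Around the 10 genes, 104 other genes of the pathway were found in the files and 97 passed the filter. Between untreated subsets, 2 were higher and 17 lower in LYVE1+CX3CR1+ than in MHCII+CD11c- cells, 11 higher and 18 lower in LYVE1+CX3CR1+ than in MHCII+CD11c+ cells, and 3 higher and 2 lower in MHCII+CD11c+ than in MHCII+CD11c- cells, beside 11.4%, 21.8% and 3.49% of all genes called in either direction. After IC the counts were 3 and 14, 7 and 23, and 4 and 2, beside 9.77%, 19.7% and 2.84%. Against untreated MHCII+CD11c+ cells, LYVE1+CX3CR1+ cells had 6 of 16 endosomal chaperones, proteases and nucleases higher and 3 lower, 3 of 13 transcription factors lower, 1 of 16 inhibitors higher and 5 lower, and 2 of 17 induced genes higher and 6 lower. The median log2 fold change of the 97 genes against MHCII+CD11c+ cells was -0.18 untreated and -0.12 after IC, and that of all genes -0.02 and -0.04.

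Of the other receptors, *Tlr5*, the flagellin receptor, was also low in LYVE1+CX3CR1+ cells. It was at 5.39, 10 and 9.15 CPM in untreated LYVE1+CX3CR1+, 32.6, 46.5 and 30.6 CPM in MHCII+CD11c- and 17.9, 19.7 and 38.1 CPM in MHCII+CD11c+ cells, and lower in LYVE1+CX3CR1+ than in MHCII+CD11c- cells without overlap (-2.13 ± 0.46, adjusted p = 0.0024). *Tlr6* was tested and not called, and *Tlr11* and *Tlr12* did not pass the filter. *Tlr11* had 19, 10 and 34 counts in untreated MHCII+CD11c+ cells and 0 to 5 in every other library of the untreated mice. *Tlr12* had at most 4 counts in any library. *Tnip3*, an inhibitor of NF-kB signaling, was at 0.404 ± 0.356 CPM in untreated LYVE1+CX3CR1+ (1, 0 and 1 counts) and 127 ± 15.3 CPM in MHCII+CD11c+ cells (SD, n = 3), at least 63-fold higher taking 3 counts per library as the floor, while in MHCII+CD11c- cells the excess was at least 18.1-fold. *Il1rl1*, which encodes the IL-33 receptor, was lower in untreated LYVE1+CX3CR1+ than in MHCII+CD11c+ cells (-3.35 ± 0.38, adjusted p = 2.56e-07), and the induced genes *Il1b* (-3.62 ± 0.37, adjusted p = 4.61e-08) and *Cxcl10* (-3.19 ± 0.60, adjusted p = 0.000224) were lower too. The protease gene *Lgmn*, whose product processes endosomal receptors, was lower in MHCII+CD11c+ than in MHCII+CD11c- cells (-0.76 ± 0.15, adjusted p = 0.00465). All of these calls held without any 1 library.

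With IC, 1, 4 and 3 of the 97 genes passed the threshold in LYVE1+CX3CR1+, MHCII+CD11c- and MHCII+CD11c+ cells, beside 0.464%, 1.06% and 0.673% of all genes, and all of these were higher. In LYVE1+CX3CR1+ cells it was *Il1b*, which encodes IL-1β (26.9 ± 13.8 CPM without and 83.2 ± 38.6 CPM with IC, 1.61 ± 0.37, adjusted p = 0.0452). That call was lost without replicate 1 or 2 of the untreated or replicate 1 or 3 of the IC-treated cells, with log2 fold changes of 1.26 to 2.11 over the 6 libraries left out. In MHCII+CD11c- cells they were *Ikbke*, *Il1b*, *Irf7* and *Ctsl*, with log2 fold changes of 2.53, 1.67, 1.34 and 0.91 (adjusted p = 0.0194, 0.0121, 0.0355 and 0.00829), and none of these 4 was called without replicate 3 of the untreated cells. *Ikbke* and *Irf7* were also lost with only the libraries compared, with 1 surrogate variable and without both shallow libraries, and *Ctsl* with only the libraries compared. Among single libraries, *Ikbke* was further lost without replicate 2 of either group, *Irf7* without replicate 1 of either group or replicate 2 of the untreated cells, and *Il1b* without replicate 1 of the IC-treated cells. Over the 6 libraries left out in turn, *Ikbke* lay at 2.08 to 2.77, *Il1b* at 1.45 to 1.97, *Irf7* at 1.08 to 1.5 and *Ctsl* at 0.77 to 1.02. In MHCII+CD11c+ cells they were *Saa3*, *Irf7* and *Cxcl2*. *Saa3*, an acute-phase gene induced by Toll-like receptors, had 0 counts in all 3 untreated libraries and 30.2 ± 9.91 CPM after IC, at least 15.3-fold higher against the same floor. *Irf7* (1.42 ± 0.29, adjusted p = 0.0171) and *Cxcl2* (1.04 ± 0.21, adjusted p = 0.014) were lost without replicate 2 or 3 of the untreated cells, and also without replicate 2 and replicate 3, respectively, of the IC-treated cells (log2 fold changes of 1.26 to 1.53 and 0.90 to 1.17). The 5 neutrophil genes also summed higher after IC in both MHCII+ subsets. Their sums were 336 to 745 CPM without and 970.1 to 2189 CPM with IC in MHCII+CD11c- cells. In MHCII+CD11c+ cells they were 4.6 to 307 and 617 to 1477 CPM. The part of neutrophils in the changes of these genes was not tested. In the comparisons of responses edgeR called 0 of the 97 genes, and DESeq2 also called 0. An unadjusted p under 0.05 was found for 10, 5 and 4 of the 97, beside 688, 474 and 642 of all 10550 genes.

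The genes most like each member in log2 CPM over the 18 libraries are given as a description, since libraries of a group share their subset and depth. For *Tlr9* they were *C1qtnf1*, *Cd209f* and *Mgl2* (Pearson's r of 0.95 to 0.97). For *Tlr13* they were *Cd63*, *Tmem86a* and *Gprc5b* (each 0.95), and for *Tlr2* *Slco2b1*, *Lgmn* and *C1qc* (0.92 to 0.94), of which *C1qc* encodes a chain of complement C1q. *Tlr8* was most like *Nrp1*, *Inpp5d* and *Tgfbi* (each 0.90) and *Tlr7* most like *Pcyt1a*, *Wwp1* and *Rhob* (0.86 to 0.91). *Myd88* was most like *Mknk2*, *Gapt* and *Bcl3* (0.87 to 0.88). The best matches of *Tlr3*, *Tlr4* and *Cd14* were weaker, at 0.77, 0.80 and 0.79. Among the 10 genes themselves, r was 0.89 for *Tlr2* and *Tlr13*, 0.79 for *Tlr2* and *Tlr8*, 0.70 for *Tlr1* and *Tlr9*, and -0.64 for *Tlr9* and *Tlr13*.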

How the data were processed

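RNA was sequenced as stranded total RNA libraries from 5 ng, and the authors trimmed reads with Trim Galore, checked them with FastQC, aligned them with HISAT2 to mm10 and assigned them to genes with featureCounts. The deposited values are the authors' raw counts per gene symbol, 1 file for each library. Tool versions, the gene annotation, the strand setting and the handling of reads with several matches are not given in the sources used here. A combined table of the same counts was not used further. The ribosomal precursor *Rn45s* took 7.92 to 16.3% of counts and was kept.

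Genes were filtered with filterByExpr (minimum count 10, minimum total 15), scaled with TMM and tested with the quasi-likelihood test of edgeR 4.0.16 in R 4.3.3, with 6 groups of 3 libraries in 1 fit. P-values were adjusted by Benjamini-Hochberg over 10550 genes, and a gene was called at an adjusted p under 0.05. The standard error is the log2 fold change divided by the root of the F statistic. Nothing in the labels gives single animals for a library, so p-values measure the spread between pools. Levels per kilobase used exon lengths of GENCODE vM21. Totals of 245903 to 2172358 counts set the precision, and the floor of 3 counts covers counting error only. The scripts were tested on simulated data.

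Alternatives were DESeq2 1.42.0, its size factors in edgeR, no filter, only the libraries compared, 1 surrogate variable (sva 3.50.0), a replicate block, and leaving out each library. For comparisons of subsets, a block by treatment and replicate number was a further alternative. Fits without *Rn45s*, without both shallow libraries and with the B cell marker sum were chosen after seeing the data. A marker of the B cell list is not reported here and was left out of its sum. The members and lists were chosen with earlier results of these data known. All 10 members are named, with at most 6 called genes of the pathway list per comparison by size of change and the 3 genes most correlated with a member. *Tlr6*, *Tlr11* and *Tlr12* are named to complete the receptors.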

Additional observations from a re-analysis of the deposited data

How the results depend on the processing

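Of 197 counts of called genes under alternatives, 176 stayed within 1.5 times the reported count, 15 were lower and 6 higher. The 3 IC responses and 3 comparisons of responses had a reported count of 0, and 0 again under an alternative is among the 176. A like count can also hold other genes. Without replicate 3 of untreated MHCII+CD11c- cells, the 2 genes called against LYVE1+CX3CR1+ cells were *Tlr9* and *Myd88*, in place of *Tlr9* and *Tlr13*. With the B cell marker sum as a covariate, 0 of the 10 genes were called in each of the 6 comparisons of subsets, and all genes called fell to between 1 and 29. Of the genes called without it, *Tlr13*, *Tlr7* and *Tlr2* in MHCII+CD11c+ over MHCII+CD11c- cells untreated were then at -1.58 ± 0.38, -1.42 ± 0.38 and -1.01 ± 0.31, against -1.5 ± 0.26, -1.17 ± 0.26 and -0.98 ± 0.21, and *Tlr13*, *Tlr2*, *Tlr7* and *Myd88* in untreated LYVE1+CX3CR1+ over MHCII+CD11c+ cells at 2.09 ± 0.88, 1.18 ± 0.75, 0.19 ± 0.95 and -0.22 ± 0.87, against 2.36 ± 0.25, 1.29 ± 0.20, 1.03 ± 0.26 and -0.93 ± 0.22. Subset and B cell sum cannot be told apart in the fits that hold LYVE1+CX3CR1+ cells. With this covariate the log2 fold change of *Myd88* turned to 0.25 (LYVE1+CX3CR1+ over MHCII+CD11c- untreated) and 0.22 (LYVE1+CX3CR1+ over MHCII+CD11c+ after IC), that of *Tlr7* to -0.16 (LYVE1+CX3CR1+ over MHCII+CD11c+ after IC) and that of *Tlr5* to 0.59 (LYVE1+CX3CR1+ over MHCII+CD11c- untreated), none of them called. Signs also turned for genes called in no fit of the comparison. *Cd14*, *Myd88*, *Tlr7* and *Tlr8* turned to -1.66, 0.40, -0.97 and -0.01 (LYVE1+CX3CR1+ over MHCII+CD11c- after IC). *Cd14* turned to -1.32 (LYVE1+CX3CR1+ over MHCII+CD11c+ after IC), and *Tlr4* and *Tlr8* to -0.06 and -0.26 (LYVE1+CX3CR1+ over MHCII+CD11c- untreated). *Cd14* and *Myd88* turned to -0.34 and 0.18 (MHCII+CD11c+ over MHCII+CD11c- after IC). Between LYVE1+CX3CR1+ and MHCII+CD11c- cells after IC, 1 surrogate variable left 1 gene called. Between MHCII+CD11c+ and MHCII+CD11c- cells after IC, DESeq2 called 2, and 0 were called with 1 surrogate variable or with only the libraries compared. For the IC response of LYVE1+CX3CR1+ cells, DESeq2 called 2, no filter 3 (*Tlr2*, *Tlr9* and *Cd14*) and only the libraries compared 2 (*Tlr2* and *Cd14*). For that of MHCII+CD11c+ cells, DESeq2 and no filter each called 1 (*Tlr13*). The cause of these differences was not tested.

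Leaving out single libraries gave 1 to 2 called genes for LYVE1+CX3CR1+ against MHCII+CD11c- cells untreated, 5 to 6 against MHCII+CD11c+ cells, 1 to 3 for MHCII+CD11c+ against MHCII+CD11c- cells, and after IC 2 to 3, 4 to 5 and 0 to 1, in the same order. It gave 0 for each IC response and each comparison of responses. *Tlr3* in LYVE1+CX3CR1+ over MHCII+CD11c- cells after IC ran from -0.65 without replicate 3 of MHCII+CD11c- cells to 1.06 without replicate 2. Over all genes, calls for the IC responses in LYVE1+CX3CR1+, MHCII+CD11c- and MHCII+CD11c+ cells were 49, 112 and 71, against 154, 280 and 157 with DESeq2 and 160, 337 and 250 without a filter. Between MHCII+ subsets they were 368 and 300, against 581 and 472 with DESeq2 and 578 and 465 without a filter. With only the libraries compared, the IC responses had 276, 21 and 176.

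With the replicate block the counts of called members were 2, 5 and 3 untreated, 3, 6 and 1 after IC and 0 for each response, as without it. That block joins untreated and IC-treated libraries of the same number. A block by treatment and number also gave 2, 5 and 3 untreated, and 3 and 6 for LYVE1+CX3CR1+ against the MHCII+ subsets after IC. Over all genes it called 472, against 368, between untreated MHCII+CD11c+ and MHCII+CD11c- cells. The main fit did not pair libraries by number. Deviations from the group means correlated at -0.05 to 0.13 in 18 pairs with the same number and treatment, 1 of them above 0.1. Yet 15 of 18 libraries correlated best with their own number, a hint from the data and not the design. Whether libraries of the same number shared mice is not settled, and the p-values of the main fit take no account of it. Depth limits *Tlr1* and *Tlr3* most, and both shallow libraries fall in 1 group.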
